A study of Mus musculus with 2 samples.

Results

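The granzyme and chymase cluster is a row of related serine protease genes on mouse chromosome 14. It was described here through 10 gene models taken by name from both expression tables, Gzmb, Gzmc, Gzmd, Gzme, Gzmf, Gzmg, Gzmn, Ctsg, Mcpt8 and Cma1, out of 34745 models. The set was chosen by place and family, but also selected on measured values: it was proposed with the 2KR to WT ratios of these libraries known. The members' values are therefore a description and carry no test. Cells came from bone marrow of C57BL/6 mice that had received 5-fluorouracil, were enriched for haematopoietic stem and progenitor cells, and were infected with lentivirus. The library called 2KR came from cells given PML/RARa (2KR), and the library called WT came from cells given the unaltered fusion, PML/RARa (WT). PML/RARa joins the nuclear body protein PML to the retinoic acid receptor alpha and is the driver of acute promyelocytic leukaemia; the series title says that 2 lysines of the fusion were studied, without their positions. Infection was alike for both libraries: polybrene was present at 6 ug per ml, and the spin lasted 40 min at 1800 rpm. The labels give 24 h as the culture time after that spin and 20% as the serum share, the same for both. Cells of both libraries grew in the same myeloid medium with SCF, IL-3, IL-6 and hydrocortisone and were sorted as transduced cells. Cells infected with the empty vector pMSCV are named in the protocol and were not analysed here. The labels give neither the number of mice pooled nor the promoter that drives the fusion.

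Each form had 1 library, with 20462011 counts in 2KR and 17606168 in WT, so no difference below has a replicate check and no p-value was computed. Levels are given as CPM, the deposited count over the scaled library total, or as the deposited FPKM. FPKM also divides by a fixed length for each model, 1.42 kb for Gzmb, which is shorter than the span of that gene on the chromosome. Each ratio is 2KR over WT with an exact 95% interval that covers counting error only. The labelled cell type was checked against 11 stem and progenitor markers. Of these 10 passed the filter on low values given below, 1 of them 2-fold higher and 1 lower. Among all models that passed it, 2.66% were higher and 4.56% lower. The receptor gene Kit had 1158 CPM in 2KR and 1359 in WT, the surface antigen gene Cd34 had 723 and 388, and Ly6a had 89.2 and 135. The transcription factor gene Mecom had 997 and 0 counts, and the homeobox gene Meis1 was 2.67-fold lower (2.45 to 2.92).

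Granzymes are serine proteases that are stored in secretory granules bound to the proteoglycan serglycin. Cytotoxic T cells and natural killer cells release them onto target cells together with perforin, and in mice mast cells can make granzyme B as well. Chymases and the other proteases of the same locus belong to mast cells, basophils and granulocyte precursors: Cma1 encodes a mast cell chymase, Mcpt8 a protease of basophils, and Ctsg cathepsin G, a protease of the primary granules of promyelocytes. All are made as precursors, and cathepsin C removes a short leader peptide to activate granzymes and cathepsin G.

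The members differed in direction. A filter on low values kept 12466 models whose mean over both libraries reached 1 CPM, and these are called tested here, meaning compared by the size of the ratio. Every count of models past a fold uses the log2 ratio of CPM + 1, which is smaller than the ratio of CPM for low genes. Of the 10 members, 6 passed and 4 did not. Of the 6, Gzmb, Gzmc, Gzmd, Ctsg and Mcpt8 were at least 2-fold higher and Cma1 was at least 2-fold lower, where 2.66% of all tested models were higher and 4.56% lower. The members were chosen with these ratios in view, so nothing is read from their share. The fold was smallest for Gzmb at 2.00 and largest among the higher ones for Gzmc at 8.73. The other 4 members were close to or at 0 in both libraries. Of 37 other models tested within 1000 kb of the cluster, none was 2-fold apart.

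The members lie in a stretch of 321 kb in GRCm38 and are all transcribed from the minus strand. Along the chromosome they run from Cma1 (ENSMUSG00000022225, chromosome 14, 55941453 to 55944661) over Mcpt8 (ENSMUSG00000022157, 56082166 to 56085216), Ctsg (ENSMUSG00000040314, 56099881 to 56102574), Gzme (ENSMUSG00000022156, 56117619 to 56120625), Gzmd (ENSMUSG00000059256, 56129556 to 56132608), Gzmg (ENSMUSG00000040284, 56156582 to 56159579), Gzmn (ENSMUSG00000015443, 56165797 to 56174596), Gzmf (ENSMUSG00000015441, 56205266 to 56211407) and Gzmc (ENSMUSG00000079186, 56231401 to 56234656) to Gzmb (ENSMUSG00000015437, 56258856 to 56262260). The gap of 138 kb between Cma1 and Mcpt8 holds the mast cell protease genes Cma2, Mcpt1, Mcpt9, Mcpt2 and Mcpt4. No other model of the files overlaps a member. In GENCODE M21, which uses the same build, the models Gm4022 and Mir6949 also lie across Gzmf with Gzmn and across Mcpt8.

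The copies differ in how alike they are, which bears on how reads could be assigned. Coding sequences of Gzmd, Gzme, Gzmf and Gzmg were 83.6% to 93.3% identical to each other, with Gzmd and Gzme the closest pair. Gzmc was 71.5% to 73.4% identical to these 4. Gzmb was 76.2% identical to Gzmc, and 57.6% to 68.3% identical to the other 8 members. Of all windows of 50 bases along its transcript, 78.1% were found in no other gene for Gzmd, 79.4% for Gzme, 95.9% for Gzmc and 100.0% for Gzmb, Ctsg and Mcpt8. With windows of 100 bases the share was 99.8% or more for each of the 10 members. Read length was not stated in any source used, so single values of Gzmd to Gzmg are uncertain, and their sum is given below.

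Promoter sequences are shown because members with like promoters had very different levels per length: in 2KR, Gzmc was at 186 FPKM, Gzmd at 4.87 and Gzmg at 0. They are RefSeq windows on GRCm38.p6 from 250 bases before to 50 bases after the start. All 10 members had one. The RefSeq start of Gzmb lies 74 bases upstream of the 5′ end of its model in the files. The promoters of Gzmc, Gzmd, Gzme, Gzmf and Gzmg were 73.5% to 93.4% identical to each other, while that of Gzmb was 42.5% to 47.8% identical to the other 9, and that of Gzmn 47.2% to 50.0% identical to these 5. A stretch of 65 bases just before the start is shown for the 5 related promoters, with capitals for the 8 bases that in Gzmc spell TGACGTCA, the cyclic AMP response element.
Gzmc (chr14:56234668-56234732, minus strand): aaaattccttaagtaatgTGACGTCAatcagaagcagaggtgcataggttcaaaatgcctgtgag
Gzmf (chr14:56211443-56211507, minus strand): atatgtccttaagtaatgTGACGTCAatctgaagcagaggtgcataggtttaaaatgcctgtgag
Gzmg (chr14:56159610-56159674, minus strand): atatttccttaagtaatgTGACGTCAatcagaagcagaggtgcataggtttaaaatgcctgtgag
Gzmd (chr14:56132608-56132672, minus strand): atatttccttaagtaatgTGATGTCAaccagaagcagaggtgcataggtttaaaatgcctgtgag
Gzme (chr14:56120641-56120705, minus strand): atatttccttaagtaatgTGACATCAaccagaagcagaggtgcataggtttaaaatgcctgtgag

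Positions are counted from 1 at the 5′ end of this stretch. Within the capitals Gzmd differs from Gzmc by C22T and Gzme by G23A, and outside them the 4 other genes share A2T, A4T and C51T. A run of 20 bases was the same in all 5. The intact element is found in 1.79% of all 32851 promoter windows. Among the members it stands in the promoters of Gzmc, Gzmf and Gzmg. Of these, Gzmc was read at 172 CPM in 2KR and 19.7 in WT, Gzmf had 8 and 0 counts, and Gzmg had 0 counts in both libraries.

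The promoters of the 3 most abundant members and of the chymase gene are shown in full, since they share little sequence. Those of Ctsg, Mcpt8 and Cma1 were 42.0% to 49.3% identical to each other and to the granzyme promoters. Capitals mark every match, on both strands, to TGACGT (the first 6 letters of the cyclic AMP element), TGACTCA (AP-1), TGTGGT (RUNX) and TTCNNNGAA (STAT).
Gzmb (chr14:56262285-56262584, minus strand): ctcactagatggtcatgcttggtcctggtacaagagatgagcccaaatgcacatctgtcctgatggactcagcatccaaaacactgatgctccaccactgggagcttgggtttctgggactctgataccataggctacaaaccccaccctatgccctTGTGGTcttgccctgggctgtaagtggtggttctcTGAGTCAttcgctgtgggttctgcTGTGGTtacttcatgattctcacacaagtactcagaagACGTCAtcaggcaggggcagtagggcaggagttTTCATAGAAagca
Ctsg (chr14:56102525-56102824, minus strand): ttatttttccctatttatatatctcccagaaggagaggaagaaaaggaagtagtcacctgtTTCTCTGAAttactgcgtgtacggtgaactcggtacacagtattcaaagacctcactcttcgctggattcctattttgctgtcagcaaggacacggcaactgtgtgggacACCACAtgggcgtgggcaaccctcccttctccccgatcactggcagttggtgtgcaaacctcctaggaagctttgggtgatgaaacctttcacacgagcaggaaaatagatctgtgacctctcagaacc
Mcpt8 (chr14:56085148-56085447, minus strand): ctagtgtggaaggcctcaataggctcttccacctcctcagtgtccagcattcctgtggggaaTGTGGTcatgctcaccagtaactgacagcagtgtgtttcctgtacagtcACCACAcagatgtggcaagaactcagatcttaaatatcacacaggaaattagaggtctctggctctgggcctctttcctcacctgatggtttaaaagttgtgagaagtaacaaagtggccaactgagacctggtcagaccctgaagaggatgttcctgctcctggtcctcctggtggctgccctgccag
Cma1 (chr14:55944626-55944925, minus strand): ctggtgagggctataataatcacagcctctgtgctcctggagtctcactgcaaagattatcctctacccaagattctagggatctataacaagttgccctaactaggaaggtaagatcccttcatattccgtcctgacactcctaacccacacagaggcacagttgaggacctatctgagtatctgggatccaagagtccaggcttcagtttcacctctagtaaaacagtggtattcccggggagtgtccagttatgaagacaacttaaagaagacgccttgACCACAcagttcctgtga

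The Gzmb promoter held an AP-1 match at base -58, RUNX matches at -93 and -34, TGACGT at 5 and a STAT match at 38, counted from the start. TGACGT was in 4 of 10 member promoters, in 3 of them within the full element, and in 7.51% of all windows. The RUNX letters were found in 9 of 10 member promoters, all but Gzmn, and in 16.8% of all windows. They stand 2 times in each of the promoters of Gzmc to Gzmg, which are alike in sequence and so are not independent. AP-1 letters were in 1 of 10 member promoters and 5.20% of all windows, and STAT letters in 2 of 10 and 8.30%. The GATA letters AGATAA were in 0 of 10 and 11.2%. Other spellings of a GATA site, such as AGATAG, were not searched, so a member promoter may hold one. The E-box letters CATGTG, which MITF can bind, were in 2 of 10, Ctsg and Gzmc, and 14.2%. In Ctsg the E-box match overlaps the RUNX match. The letters AGGTCA, which retinoic acid receptors can bind, were in 4 of 10, Ctsg, Gzme, Gzmd and Gzmc, and in 16.3% of all windows. These are matches of letters in a short window and do not show binding.

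**Figure D1:**
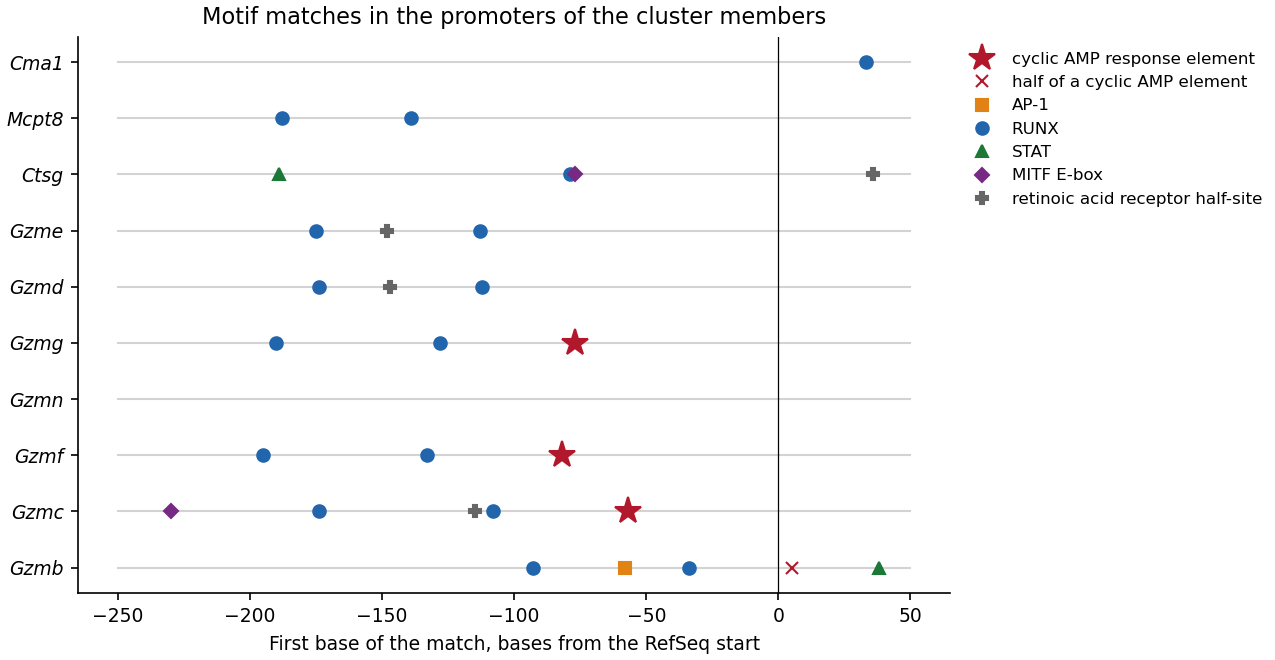
First base of each motif match (horizontal axis, bases from the RefSeq start) in the promoters of the 10 members, ordered along chromosome 14 from Cma1 at the top. The promoters of Gzmg, Gzmf and Gzmc hold the full cyclic AMP response element at -77, -82 and -57, and 9 of 10 promoters hold a RUNX match.

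The gene of granzyme B, a protease that cleaves target proteins after aspartate and triggers apoptosis, had the most abundant RNA of the cluster. Gzmb had 37042 counts in 2KR and 15687 in WT, which is 1798 and 897 CPM. With the length divided out it was at 1277 FPKM in 2KR and 628 in WT, at rank 17 and rank 39 among all models. The ratio was 2.00 (1.97 to 2.04). On the scale of CPM + 1 used for the 2-fold rule its log2 ratio was 1.0018, so it sat on the threshold. Under 6 other choices of scaling or pseudocount the log2 ratio lay between 0.98 and 1.02 and reached 1 in 3 of them.

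Gzmc, a neighbouring granzyme whose gene lies 24.2 kb from Gzmb, had the highest ratio among the 6 tested members. Gzmf, with 0 counts in WT, has no upper limit to its ratio and cannot be ranked against it. Gzmc had 3549 counts in 2KR and 345 in WT, or 172 and 19.7 CPM, a ratio of 8.73 (7.81 to 9.78). Its log2 ratio of CPM + 1 was 3.06, at rank 8 of 12466 models tested. With the length divided out Gzmc was at 186 FPKM in 2KR and 21.0 in WT, which is rank 143 in 2KR and rank 2240 in WT. The balance between the 2 genes therefore differed between the libraries: in FPKM, Gzmb was 6.87 times Gzmc in 2KR and 29.9 times Gzmc in WT. The ratio of Gzmc to Gzmb counts was 4.36 times as high in 2KR (3.89 to 4.89).

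The other granzyme genes were low. Gzmd had 96 counts in 2KR and 24 in WT, or 4.66 and 1.37 CPM, a ratio of 3.39 (2.15 to 5.55). Gzme had 19 and 5 counts, a ratio of 3.22 (1.16 to 11.0), and did not pass the filter. Gzmf had 8 counts in 2KR and 0 in WT. With WT set at the floor of 3 counts this would be 2.26-fold higher, while the exact two-sided interval begins lower, at 1.45. Gzmg and Gzmn had 0 counts in both libraries, for which the exact 95% upper limit was 0.179 CPM in 2KR and 0.211 in WT, and the floor of 3 counts was 0.146 and 0.172 CPM. The 5 genes together had 123 counts in 2KR and 29 in WT, a ratio of 3.60 (2.39 to 5.60). The sum removes the split of reads among these 5 genes, but not reads shared with Gzmc. Gzmc shares windows of 50 bases with Gzmd, Gzme and Gzmg and had 3549 counts in 2KR and 345 in WT, so with short reads a small part of its reads could make up much of the sum. Reads lost because they match several copies would also be missing from it.

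Summed over all 7 granzyme genes there were 40714 counts in 2KR and 16061 in WT, a ratio of 2.15 (2.11 to 2.19). Without Gzmb the sum was 3672 and 374 counts, a ratio of 8.33 (7.49 to 9.29), of which Gzmc made up nearly all. All 10 members took 0.293% of the counts in 2KR (Wilson interval 0.2910 to 0.2956) and 0.132% in WT (0.1298 to 0.1332). Of the member counts, Gzmb held 61.7% in 2KR and 67.7% in WT, and Gzmc 5.91% and 1.49%.

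Ctsg and Mcpt8, which lie 14.7 kb apart, had nearly the same values. Ctsg had 10029 counts in 2KR and 3708 in WT, or 487 and 212 CPM and 489 and 210.2 FPKM, a ratio of 2.29 (2.21 to 2.38). Mcpt8 had 9269 and 3324 counts, or 449.8 and 190.1 CPM and 529.8 and 221 FPKM, a ratio of 2.37 (2.27 to 2.46). In FPKM Ctsg was 0.923 times Mcpt8 in 2KR and 0.952 times Mcpt8 in WT, and the ratio of their counts was 0.970 times as high in 2KR, with an interval of 0.918 to 1.02 that includes 1. Against Gzmb, the ratio of Ctsg counts was 1.15 times as high in 2KR (1.10 to 1.19) and that of Mcpt8 counts 1.18 times (1.13 to 1.23). In order of FPKM, the 2KR library ran Gzmb, Mcpt8, Ctsg and Gzmc, and the WT library had the same order.

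The mast cell chymase gene Cma1, at the far end of the cluster, was lower in 2KR. It had 2 counts in 2KR and 62 in WT, or 0.0971 and 3.55 CPM, which is 36.5-fold lower (9.70 to 308). The interval is wide because 2KR holds 2 counts, and the gene would not pass a filter of 5 CPM. The 5 proteases between Cma1 and Mcpt8 could not be compared at this depth: Mcpt2 had 4 counts in 2KR and 1 in WT, Mcpt4 had 0 and 3, Mcpt1 had 1 and 1, Cma2 had 0 and 1, and Mcpt9 had 0 in both.

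**Figure D2:**
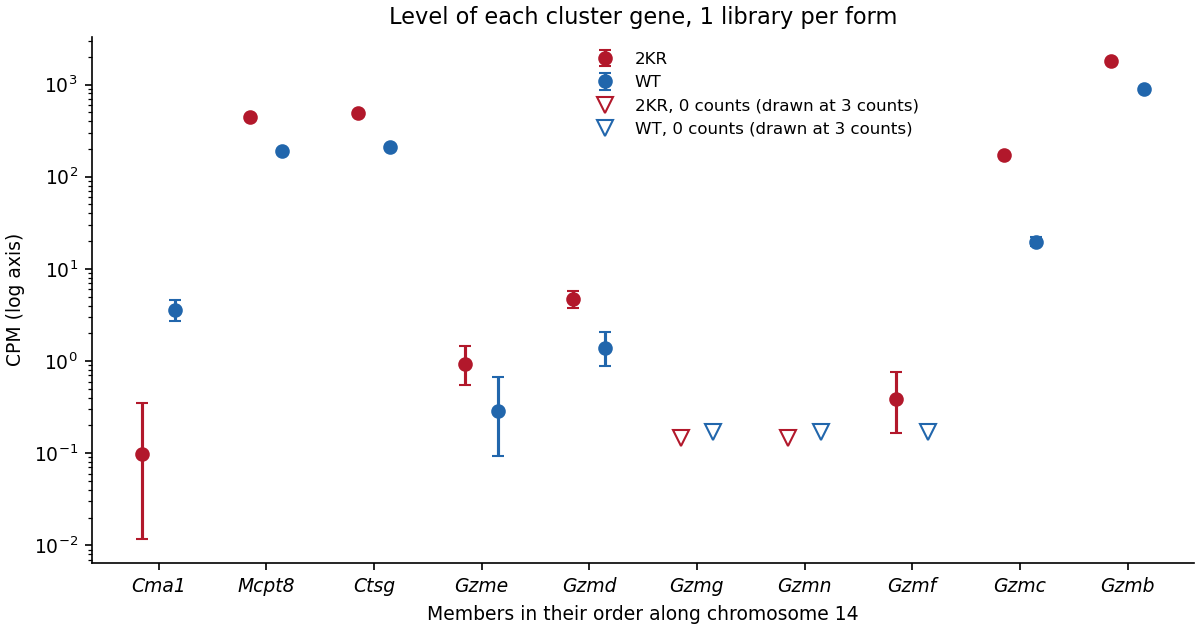
CPM on a log axis for each member in its order along chromosome 14, with 2KR in red and WT in blue, exact 95% counting intervals as bars, and open triangles for 0 counts drawn at the level of 3 counts. The 2KR value lies above the WT value for every member with counts other than Cma1.

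Of the 12466 models tested, 900 or 7.22% were 2-fold apart. The median log2 ratio was 1.22 over the 6 members and 0.02 over all models tested. At a 1.5-fold rule, which 6.92% of models passed as higher and 9.67% as lower, the members again counted 5 higher and 1 lower. At a 4-fold rule, which 0.417% passed as higher and 1.12% as lower, Gzmc was the one higher member and Cma1 the one lower.

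**Figure D3:**
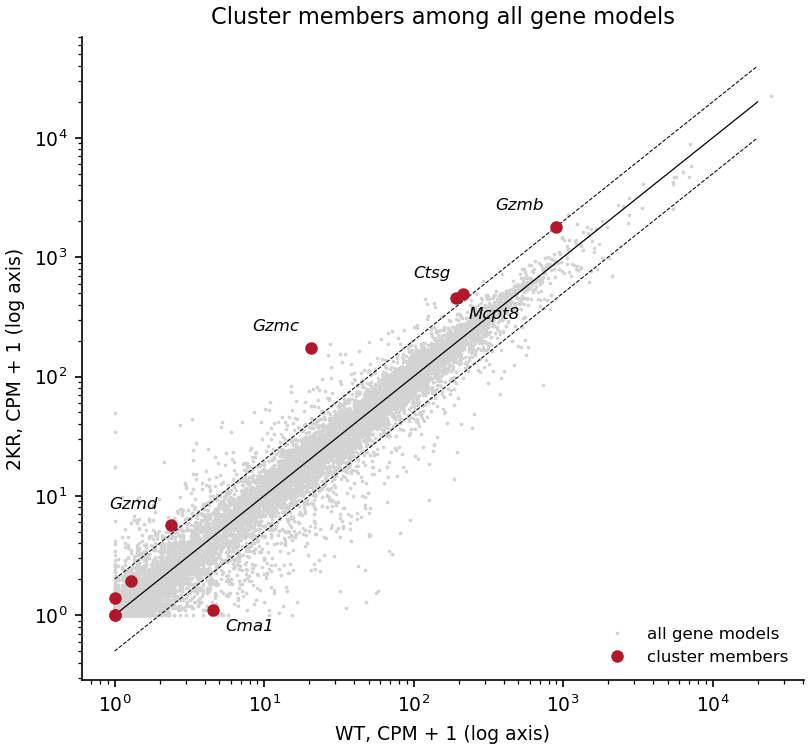
CPM + 1 in 2KR (vertical) against WT (horizontal), log axes, for all 34745 models in grey and the 10 members in red, with lines at equality and at 2-fold. Gzmb, Ctsg and Mcpt8 lie near the upper 2-fold line at high levels, and Gzmc lies far above it.

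Genes flanking the cluster were compared in the same way. The window of 1000 kb on each side held 75 other models, and 37 passed the filter, 29 before Cma1 and 8 after Gzmb. On the scale of CPM + 1 none was 2-fold higher and none 2-fold lower, against 7.22% of all models 2-fold apart. Their log2 ratios ran from -0.65 to 0.34 with a median of 0.01, with 19 ratios above 1 and 18 below. The nearest tested model on the Cma1 side was Sdr39u1, 41.2 kb away, with 46.3 CPM in 2KR and 39.4 in WT, a ratio of 1.18 (1.07 to 1.30). On the Gzmb side it was Cenpj, a centriole gene 265 kb away, with 72.6 and 57.3 CPM, a ratio of 1.27 (1.17 to 1.37). The 3 models past 1.5-fold were all lower in 2KR: Rec8, a cohesin subunit of meiosis, at 29.1 and 46.1 CPM, Pspc1, a paraspeckle protein, at 29.7 and 47.4, and Lrrc16b at 1.02 and 2.06. For Lrrc16b the ratio of CPM was 0.495 (0.275 to 0.871), which passes 2-fold, while its log2 ratio of CPM + 1 was -0.60.

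**Figure D4:**
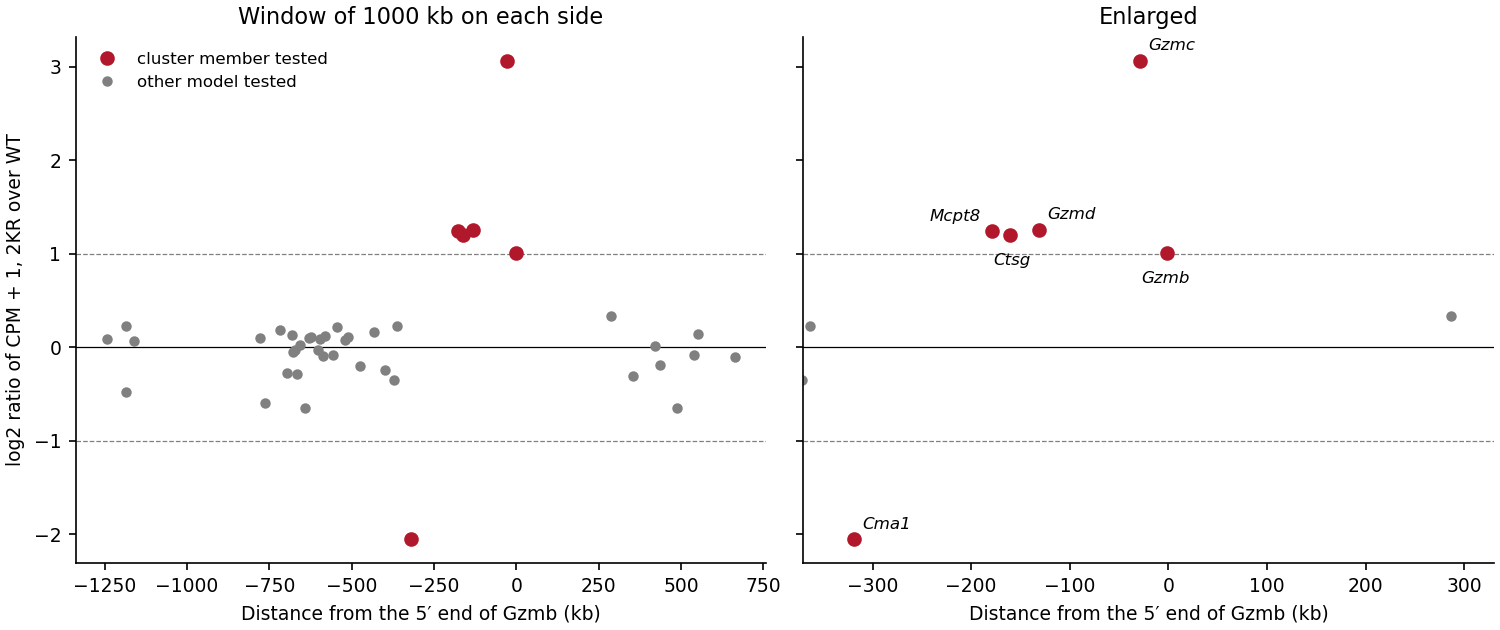
Log2 ratio of CPM + 1, 2KR over WT, against distance from the 5′ end of Gzmb in kb, for tested members in red and other tested models in grey, with dashed lines at 2-fold, over the whole window (left) and enlarged (right). All 37 grey points lie between -0.65 and 0.34, and the 6 members lie at or beyond the dashed lines.

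Partner genes of granzymes, 17 of maturation, storage and release, were compared next. Of these 16 were tested, 0 were 2-fold higher and 2 were 2-fold lower, with a median log2 ratio of -0.14. Over all tested models 2.66% were higher and 4.56% lower, so 0 higher among 16 is near that share. Srgn, which encodes serglycin, had 641 CPM in 2KR and 670.4 in WT, a ratio of 0.956 (0.932 to 0.980), and Ctsc, the activating cathepsin C, had 172 and 185 CPM. Rab27a, a GTPase that docks secretory granules, was 3.72-fold lower (3.28 to 4.23), at 15.6 and 57.9 CPM. Igf2r, a receptor that sorts mannose 6-phosphate proteins such as granzymes, was 3.05-fold lower (2.33 to 4.02), at 3.74 and 11.4 CPM. Unc13d, a priming factor of granule release, was 1.75-fold lower (1.53 to 2.01), and the lysosomal membrane gene Lamp1 1.42-fold lower (1.38 to 1.47). Gnptab, an enzyme that makes the mannose 6-phosphate tag, had 394 CPM in 2KR and 236 in WT, a ratio of 1.67 (1.61 to 1.74).

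Inhibitors of these proteases were read through 8 genes, of which 7 were tested. Of the 7, 0 were 2-fold apart, which is near the share of 7.22% over all tested models. A ratio below 1 was found for 5, with a median log2 ratio of -0.34. Serpinb1a, an inhibitor of neutrophil serine proteases including cathepsin G, had 439 CPM in 2KR and 781 in WT, 1.78-fold lower (1.73 to 1.83). Serpina3g had 848 and 1229 CPM, 1.45-fold lower (1.42 to 1.48), and Serpina3f had 229 and 348, 1.52-fold lower (1.46 to 1.58). Slpi, a secreted inhibitor, had 19 and 25 counts, with an interval that includes 1. Serpinb9, the intracellular inhibitor of granzyme B, had 17.7 and 20.5 CPM. The 2 tested genes with a ratio above 1 were Serpinb6b and Serpinb6a. Serpinb6b had 120.2 CPM in 2KR and 97.4 in WT, a ratio of 1.23 (1.16 to 1.31). Serpinb6a had 36.7 and 32.8 CPM, a ratio of 1.12 (1.00 to 1.25).

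Markers of the cell types that make these proteases differed in direction. Bulk RNA cannot tell fewer cells of a type from less RNA per cell. Among 18 cytotoxic T and natural killer cell markers, 6 were tested, 0 were 2-fold higher and 1 was 2-fold lower, with a median log2 ratio of 0.12. Over all tested models 2.66% were higher and 4.56% lower. Cd3e, Cd8b1, Gzmk, Ifng and Ncr1 had 0 counts in both libraries, and Gzma had 0 in 2KR and 4 in WT. The summed level of the list was 265 CPM in 2KR and 212 in WT, nearly all from Nkg7, a granule membrane gene, at 247 and 191 CPM. Prf1, which encodes perforin, had 4.71 and 2.52 CPM, a ratio of 1.87 (1.30 to 2.74), and the transcription factor gene Tbx21 had 5.63 and 3.09 CPM, a ratio of 1.82 (1.31 to 2.57). Klrd1, a receptor of natural killer cells, was 3.71-fold lower (2.49 to 5.67), at 33 and 104 counts or 1.60 and 5.95 CPM. Cd3g, a chain of the T cell receptor complex, had 40 and 72 counts, 2.12-fold lower (1.42 to 3.21). On the scale of CPM + 1 its log2 ratio was -0.80, and it passed 2-fold with a pseudocount of 0.1 CPM, at -1.05, and on deposited FPKM, at -1.02. The part of these markers in the ratios of the granzyme genes was not tested.

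Mast cell and basophil markers outside the cluster were lower in 2KR, like Cma1 and unlike Mcpt8. Of 16 genes 11 were tested, and all 11 had a ratio below 1, 6 of them 2-fold lower, with a median log2 ratio of -1.01. Over all tested models 4.56% were 2-fold lower. Kit and Gata2 are in this list and also among the stem and progenitor markers. They had 1158 and 447 CPM in 2KR against 1359 and 683 in WT, and neither was 2-fold lower. The summed level of the whole list was 5009.7 CPM in 2KR and 9228 in WT, and Fcer1a, Mrgprb1, Mrgprb2 and Tpsab1 had 0 counts in both. Cpa3, the mast cell carboxypeptidase, made up the largest part of this sum in both libraries. It had 2525 and 5468 CPM, 2.17-fold lower (2.14 to 2.19). Prss34, a protease of basophils and mast cells, had 0 counts in 2KR and 82 in WT, at least 25.6-fold lower by the exact interval. With 2KR set at the floor of 3 counts it would be 32.2-fold lower. Mitf, a transcription factor of mast cells, had 2.52 and 14.6 CPM. Ms4a2, the beta chain of the IgE receptor, had 0.874 and 3.77, and Il1rl1, the receptor of interleukin 33, had 95.7 and 214. The part of these markers in the ratio of Cma1 was not tested.

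Of 14 promyelocyte granule markers outside the cluster, 11 were tested, 2 were 2-fold higher and 1 was 2-fold lower, with a median log2 ratio of 0.37. Over all tested models 2.66% were higher and 4.56% lower. Of the 11 genes, 6 had a ratio above 1 and 5 below. The list is broader than granule proteins, since it also holds a chaperone, a hexokinase and a surface receptor gene. The summed level of the whole list was 3615 CPM in 2KR and 2768 in WT, and Fcnb had 0 counts in both. Calr alone made up the largest part of this sum in both libraries. Mpo, myeloperoxidase, had 36.0 and 16.2 CPM, a ratio of 2.22 (1.93 to 2.56), close to the ratio of Ctsg. Hk3, a hexokinase of myeloid cells, had 195 and 49.4 CPM, a ratio of 3.95 (3.67 to 4.26), and the chaperone gene Calr had 1899 and 1230.2 CPM. The protease genes that usually accompany Ctsg in primary granules were scarcely read: Elane, neutrophil elastase, had 10 counts in 2KR and 5 in WT, and Prtn3, proteinase 3, had 14 and 6. Sirpa, a surface receptor of myeloid cells, was 16.8-fold lower (11.4 to 25.5). Srgn, Ctsc and Nkg7 stand in this list and in one given above. The part of these markers in the ratio of Ctsg was not tested.

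**Figure D5:**
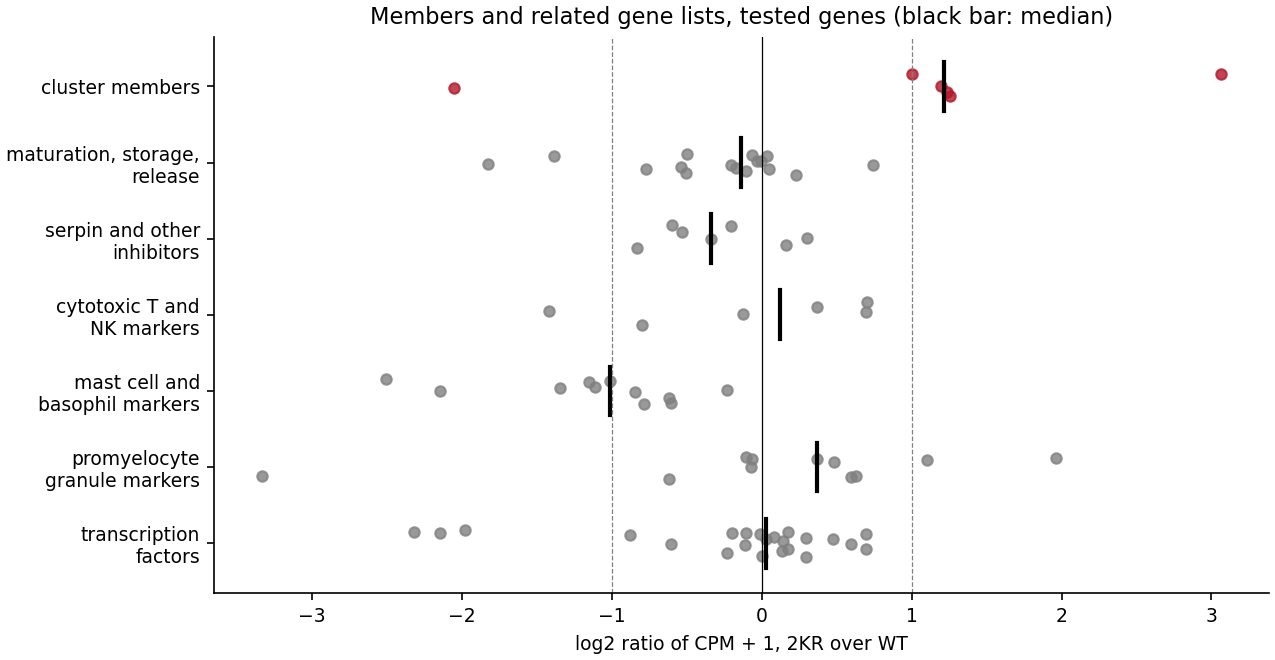
Log2 ratio of CPM + 1, 2KR over WT, for the tested genes of the cluster (red) and of 6 related lists (grey), with a point for each gene, black bars for medians and dashed lines at 2-fold. The medians are 1.22 for the cluster, -1.01 for mast cell and basophil markers and 0.37 for promyelocyte granule markers.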

How the data were processed

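RNA-seq was done on 1 library of each form, 2KR and WT, grouped by the infection given in the labels. The aligner HISAT2 2.0.4 and the build GRCm38 are named per the submitters' processing notes; for counting program, annotation, strandedness and read length the sources used here state nothing. The authors deposited raw read counts and FPKM for 34745 gene models, per the file headers. FPKM equalled the count over a fixed length and the library total, within 0.1%, in 15403 of 15403 models with counts in both.

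Counts were scaled by TMM (edgeR 4.0.16, R 4.3.3; factors 1.0070 for 2KR and 0.9930 for WT) to CPM. Models averaging 1 CPM or more were tested, which means compared by size: a model was 2-fold apart when the log2 ratio of CPM + 1 was at least 1 in size. Ratios in the text carry no pseudocount. Their 95% intervals follow Clopper-Pearson given both scaled totals, those of ratios between genes are exact conditional odds ratio intervals, and shares have Wilson intervals, all for counting error only. The floor for 0 counts was 3 counts per library. Further tools were scipy 1.17.1, Biopython 1.88 and matplotlib 3.10.9 under Python 3.11.15. The size rule and intervals were tested on simulated counts with counting noise alone. Such data hold no variation between cultures and cannot show how the rule behaves under it. Coding sequences came from GENCODE M21 and were aligned end to end; promoters are from RefSeq, GRCm38.p6.

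Members and lists were chosen with earlier results of these data known. Named were all members, the nearest tested neighbour on each side, and from each list the 4 genes farthest from a log2 ratio of 0 and the 2 most abundant by mean CPM; the genes nearest in pattern to Gzmb, Gzmc, Ctsg and Mcpt8; and T and natural killer markers at 0 counts in both. Some of the genes so named are not reported here. Rec8, Pspc1, Lrrc16b, the stem and progenitor markers other than Kit and Gata2, Ctsc, Serpinb9, Serpinb6a, Serpinb6b, Gzma, Elane, Prtn3, Fcnb, Fcer1a, Mrgprb1, Mrgprb2, Tpsab1, Runx1, Cebpa and the proteases between Cma1 and Mcpt8 were named after their values were seen. Alternatives were other pseudocounts, filters, scalings, folds and windows, the deposited FPKM, and granzyme copies summed.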

Additional observations from a re-analysis of the deposited data

How the results depend on the processing

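All 6 tested members kept their direction under a pseudocount of 0.1 or 5, size factors by the median of ratios, library totals, centring on the median of all models and deposited FPKM. With a pseudocount of 5, 3 members were 2-fold higher, without Gzmb and Gzmd, and 0 lower; under a 5 CPM filter 0 were lower, since Cma1 did not pass. At 4-fold 1 member was higher. The summed ratio of 7 granzymes was 2.26 on FPKM. At 1.5-fold 3 neighbours were lower. The median of T and natural killer markers was -0.16 with no filter, against 0.12, and that of mast cell and basophil markers was -1.11 with a pseudocount of 0.1, -0.84 with 5, and -0.93 without a filter and likewise with one of 5 CPM. Over all models, 147 were higher and 297 lower with a pseudocount of 5, and 207 and 377 under a 5 CPM filter, against 331 and 569. The cause of these shifts was not tested, except that a larger pseudocount shrinks low genes and a filter removes them. No paired analysis was possible because each form has 1 library. Variation between cultures was not measured, and depth leaves Gzmf, Gzmg, Gzmn and 5 proteases between Cma1 and Mcpt8 at 8 counts or fewer.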

Other observations

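Transcription factors with known roles at granzyme or granule protease genes were read at a range of levels. Of 25 genes 23 were tested, 0 were 2-fold higher and 3 were 2-fold lower, with a median log2 ratio of 0.02, equal to that of all models. The shares over all tested models were 2.66% higher and 4.56% lower. Fos and Junb, subunits of AP-1, were 5.14-fold lower (4.68 to 5.65) and 3.98-fold lower (3.79 to 4.19), at 26.4 and 95.6 CPM in 2KR, against 136 and 381 in WT. Jun was 1.85-fold lower (1.73 to 1.97). Mitf was the third gene 2-fold lower, and Gata2, a factor of progenitors and mast cells, had 447 CPM in 2KR and 683 in WT, 1.53-fold lower (1.48 to 1.57). Myb, a factor of myeloid progenitors, had 851 and 613 CPM, a ratio of 1.39 (1.35 to 1.42), and Cebpa, a factor of granulocyte commitment, had 77.5 and 47.5 CPM. Runx1 had 379 and 335 CPM.

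Among tested models outside the cluster, the pair of CPM values nearest to that of Ctsg was that of Ywhah, with 467 CPM in 2KR and 225 in WT, followed by Igfbp4 at 433 and 219.9 and Perp at 439 and 240.0. The same 3 genes were nearest to Mcpt8. Nearest to Gzmc were Tnfaip2 at 149.8 and 25.8 CPM, Gria2 at 187 and 26.5, and Dntt, the lymphoid DNA polymerase TdT, at 154 and 31.1. Among the nearest to Gzmb were Iqgap2 at 1472 and 978 CPM and Ifitm1 at 1383 and 1010.3. Nearness was the distance of log2(CPM + 1) over 2 libraries, which rests on level and 1 ratio alone.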
